A study of Mus musculus with 14 samples.

Results

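The plasma miRNAs described here were miR-214 and miR-199, measured by quantitative PCR in mice with osteosarcoma (OS, a tumour of bone) and in controls. A well was taken where its miRNA name, without the species prefix, the arm and the star, was miR-214, miR-199a or miR-199b. That rule found 6 of 392 named wells, among 768 wells on the plates. Of these, 3 were miR-214 wells (mmu-miR-214, rno-miR-214 and mmu-miR-214*) and 3 were miR-199 wells (mmu-miR-199a-3p, mmu-miR-199a-5p and mmu-miR-199b*). They stand for 5 different miRNAs, because rno-miR-214 is a second assay of miR-214 that carries the rat name. All 6 wells had a signal in every mouse.

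The 8 mice with OS came from a genetically engineered mouse model (GEMM), in which Cre recombinase driven by a Col-α1(I) promoter region deletes loxP-flanked Trp53 in osteoblasts. Either 1 or both Trp53 alleles were floxed, and the labels do not say for each mouse which applied, whether its tumour had spread, or its age. The controls were 6 wild-type littermates without tumour, given in the study's methods as p53+/+;Cre+/-, and the floxed alleles and the disease differ between the groups together. Plasma came from EDTA blood taken by cardiac puncture once a tumour had formed. The study's methods name more mice with OS for this profiling than the 8 labelled so here.

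The miR-199a-2 and miR-214 hairpins lie in 1 long noncoding RNA, Dnm3os, which runs antisense to an intron of Dnm3 and is known in the mouse for its need in growth and skeletal development. It is transcribed mainly in mesenchymal cells, from which bone, cartilage and stroma derive. Each hairpin is cut into a 5′ and a 3′ arm, and mature miRNAs repress mRNAs that pair with their seed, the bases 2 to 8. In mouse osteoblasts miR-214 is known to repress Atf4, a transcription factor that drives bone matrix formation, while miR-199a is also plentiful in platelets. The question put to the data was whether miRNAs made from 1 transcript were altered together in plasma, between the groups and from mouse to mouse.

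The mature sequences are shown to tell the arms apart, since the results differ between them. They are RefSeq sequences of build GRCm38.p6 with the seed in capitals, and 4 of the 6 wells matched by name, while rno-miR-214 and mmu-miR-199b* did not.
mmu-miR-214 (the 3′ arm): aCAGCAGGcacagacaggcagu
mmu-miR-214* (the 5′ arm): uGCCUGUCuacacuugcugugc
mmu-miR-199a-3p: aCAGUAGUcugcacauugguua
mmu-miR-199a-5p: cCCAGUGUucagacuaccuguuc
On the plus strand of chromosome 1, miR-199a-5p lies at chr1:162217844-162217866, miR-199a-3p at chr1:162217883-162217904, miR-214* at chr1:162223397-162223418 and miR-214 at chr1:162223438-162223459. All 4 fall within the Dnm3os gene span (chr1:162217623-162225550), a noncoding gene, and 5444 bases separate the hairpins. The 4 have different seeds. The reference holds 2 other mature miRNAs that share a seed with a member, miR-199b-3p and miR-761, and neither has a named well.

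The miR-214 hairpin is shown because both of its arms were measured, and they are in capitals, the 5′ arm first.
Mir214 hairpin: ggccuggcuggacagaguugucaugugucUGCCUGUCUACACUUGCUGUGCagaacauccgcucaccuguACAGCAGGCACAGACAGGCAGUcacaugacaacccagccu
Not every member comes from this transcript alone. Both arms of miR-199a are also encoded by Mir199a-1 on the minus strand of chromosome 9 (hairpin at chr9:21496495-21496564, within the span of Dnm2). The mature miR-199a-3p has the same letters as miR-199b-3p of Mir199b on chromosome 2 (hairpin at chr2:32318460-32318569, within the span of Dnm1). The miR-199a-3p well therefore cannot tell these 3 loci apart, and the miR-199b* well is named for a locus outside Dnm3os. The 5′ side of the Mir199b hairpin holds a stretch that differs from miR-199a-5p in a single base, outside the seed. The miR-199b* well was not matched to a sequence, so its assay may target nearly the same letters as that of miR-199a-5p. Whether the assays tell these apart was not tested.

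Values are given as normalized levels, the mean quantification cycle (Cq) of a mouse minus the Cq of the well, on a log2 scale on which a higher value is a higher level. Across the 388 miRNAs tested by limma with Benjamini-Hochberg adjustment, 24 were higher (6.19% of those tested) and 25 lower (6.44%) in mice with OS at an adjusted p under 0.05. Scaling to the study's 3 reference miRNAs (miR-423-3p, miR-103, miR-191) split the calls 22 to 11, higher against lower, scaling to the median 28 to 14, and unscaled Cq 4 to 17. The median difference over all 388 was -0.0027 as scaled here, 0.14 when scaled to the median and -0.45 unscaled. Blank wells made up 13.9 to 24.7% of the plates. The haemolysis marker, which subtracts the Cq of miR-451, a red cell miRNA, from that of miR-23a, spanned 1.05 to 6.85 in mice with OS and 4.11 to 7.21 in controls, and 2 controls lay above the limit of 7 used here for haemolysed plasma.

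Both assays of miR-214 were higher in mice with OS, by about 5-fold, and none of the other 4 members passed the test in either direction. The mmu-miR-214 well had a lowest, median and highest level of -0.72, 3.24 and 4.12 in the 8 mice with OS, against -0.47, -0.14 and 1.35 in the 6 controls. Mice 10, 11, 12, 16, 17 and 19 with OS exceeded all controls, mouse 18 lay among the controls and mouse 15 lay below all of them. The mean was 2.42 ± 1.87 in mice with OS and 0.19 ± 0.79 in controls (SD, n = 8 and n = 6), a difference of 2.22 (SE 0.71) or 4.67-fold. In limma the adjusted p was 0.0457, and the exact two-sided permutation test over mice gave p = 0.0210. In plasma the number of cells that release a miRNA and the amount released per cell cannot be told apart.

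The rat-named assay of the same miRNA ranked the mice nearly alike. For rno-miR-214 the lowest, median and highest levels were 3.18, 7.34 and 8.12 in mice with OS, against 3.11, 3.81 and 5.34 in controls. The same 6 mice with OS exceeded all controls, and mice 15 and 18 lay among the controls. The means of 6.51 ± 1.77 in mice with OS and 4.18 ± 0.92 in controls differed by 2.34 (SE 0.69), or 5.05-fold, with a limma adjusted p of 0.0347 and an exact permutation p of 0.0160. For the mean of both assays the difference was 2.28 (exact permutation p = 0.0180), and it passed that test without any 1 mouse. With 1 mouse left out, the limma adjusted p of mmu-miR-214 lay between 0.00841 and 0.103 and its difference between 1.98 and 2.67. It missed the threshold without mice 10, 11, 12, 16, 17 or 19 with OS or controls 2, 3, 13 or 14, and rno-miR-214 (difference 2.11 to 2.81) missed it without mice 10, 11, 12 or 16 with OS or those controls.

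The assays shared each mouse's RNA and are not independent replicates, but they checked one another. The Cq of mmu-miR-214 exceeded that of rno-miR-214 by 4.05 ± 0.29 (SD, n = 14 mice), with a range of 3.58 to 4.59. This gap averaged 4.10 in mice with OS and 3.99 in controls and did not pass the exact permutation test (p = 0.490). Between the wells Pearson's r was 0.992 over the mice with OS and 0.842 over controls (exact permutation p = 7.44e-05 and 0.00139, adjusted over these 2 relations 0.000149 and 0.00139), and Spearman's rho was 0.976 and 1. Without the 2 mice farthest from the median, r was 0.988 in mice with OS and 0.875 in controls.

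Before any scaling between mice, the Cq of mmu-miR-214 was 27.78, 27.65, 28.69, 32.89, 28.57, 28.43, 32.46 and 31.13 in mice 10, 11, 12, 15, 16, 17, 18 and 19 with OS. In the controls it had a lowest, median and highest value of 30.76, 31.54 and 32.08. A low Cq is a high level, so 5 mice with OS lay on the high side of every control and 2 on the low side. On these unscaled values neither assay passed the exact permutation test (p = 0.0746 for mmu-miR-214 and 0.0509 for rno-miR-214).

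The opposite arm of the same hairpin, mmu-miR-214*, was spread widely among mice with OS. Its lowest, median and highest levels were -1.66, 1.24 and 3.47 in mice with OS, against -0.35, 0.20 and 1.34 in controls. Levels above those of all controls were found in 4 mice with OS, and levels below all of them in 2, mice 15 and 18. The difference in means was 0.66 (SE 0.68, 95% confidence interval -0.76 to 2.08, limma adjusted p = 0.532).

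The miR-199 wells overlapped between the groups and none passed the test. For miR-199a-3p the lowest, median and highest levels were 1.96, 3.17 and 5.24 in mice with OS and 2.94, 3.41 and 4.35 in controls, a difference of -0.22 (SE 0.45, 95% confidence interval -1.16 to 0.71, limma adjusted p = 0.774). For miR-199a-5p, the other arm, they were 1.76, 3.02 and 4.16 in mice with OS and 2.10, 2.89 and 3.39 in controls, a difference of 0.12 (SE 0.37, 95% confidence interval -0.66 to 0.89, limma adjusted p = 0.865). For miR-199b*, from the locus within Dnm1, they were 0.46, 2.92 and 4.04 in mice with OS and 1.90, 3.29 and 3.92 in controls, a difference of -0.60 (SE 0.49, 95% confidence interval -1.63 to 0.43, limma adjusted p = 0.431). Mouse 17 with OS had the highest level of each miR-199 well, mouse 18 the lowest of both miR-199a arms, and mouse 10 the lowest of miR-199b*. The upper bounds for all 3 wells lay under the 2.22 measured for mmu-miR-214, as did that of miR-214*, 2.08. The 95% confidence interval of mmu-miR-214 itself, 0.73 to 3.72, overlapped those of miR-214* (-0.76 to 2.08) and miR-199a-5p (-0.66 to 0.89). The direction for miR-199a-3p turned after centring every panel by itself (0.02), and that for miR-199a-5p on unscaled Cq (-0.32).

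**Figure D1:**
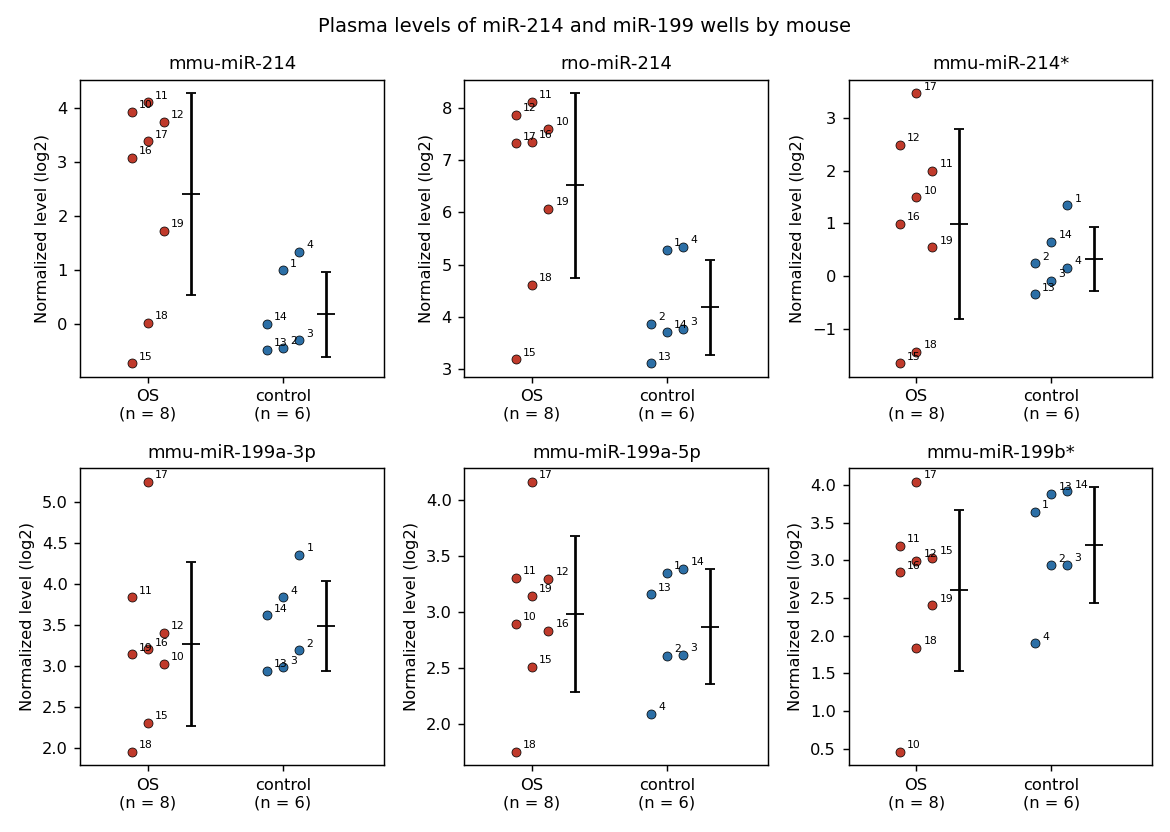
Normalized log2 level of each of the 6 wells (vertical axis) in mice with OS and in controls; points are mice labelled by number and bars are the mean and SD. The 6 mice with OS that stand above every control for mmu-miR-214 do so for rno-miR-214 as well, while the miR-199 wells overlap.

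Passing in one well and not in another does not show that the wells differ, so each pair of members was compared within each mouse, which takes scaling between mice out. miR-214* and miR-199b* sat on panel II and the rest on panel I, so their pairs still hold any difference between plates, and after centring every panel by itself the group difference was 2.47 for mmu-miR-214 and 0.22 for miR-214*. The mean of the miR-214 assays was used as miR-214, 10 pairs were compared, and the exact permutation p-values were adjusted over them. The level of such a difference depends on how well each assay amplifies, and only its shift between groups is described.

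Set against each of the other 4 members, miR-214 was shifted upward in mice with OS. miR-214 minus miR-199a-3p had a lowest, median and highest value of -1.08, 1.39 and 2.74 in mice with OS, against -1.76, -1.37 and -0.50 in controls. Only mouse 15 with OS overlapped the controls and the other 7 lay above all of them. The shift was 2.50 (SE 0.58), or 5.66-fold, with an exact permutation p of 0.0020 (adjusted p = 0.0200).

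miR-214 minus miR-214*, which sets the arms of 1 hairpin against each other, had a lowest, median and highest value of 1.89, 3.56 and 4.27 in mice with OS and 1.21, 1.74 and 3.19 in controls. Among mice with OS 6 exceeded all controls, and mice 15 and 17 lay below the highest control, mouse 4. The shift was 1.62 (SE 0.41), or 3.07-fold (exact permutation p = 0.00433, adjusted p = 0.0216). Set against miR-199a-5p the shift was 2.16 (SE 0.71, exact permutation p = 0.0147), and against miR-199b* it was 2.88 (SE 0.98, exact permutation p = 0.0140), each with an adjusted p of 0.0366. In these pairs 4 and 5 of the mice with OS exceeded all controls.

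The other 6 pairs, all among miR-214* and the miR-199 wells, did not pass (adjusted p from 0.103 to 0.482). The arms of miR-199a shifted against each other by -0.34 (SE 0.29, exact permutation p = 0.271). miR-199a-5p against miR-199b* came nearest, with a shift of 0.72 (SE 0.39, exact permutation p = 0.0513, adjusted p = 0.103). With any 1 mouse left out, the 4 shifts of miR-214 against the others kept an unadjusted exact permutation p under 0.05. Controls 3 and 13 had a haemolysis marker over 7. Without them, the shifts against miR-199a-3p (2.44, exact permutation p = 0.00808) and miR-214* (1.56, exact permutation p = 0.0101) had an unadjusted p under 0.05. Those against miR-199a-5p (1.83, exact permutation p = 0.0626) and miR-199b* (2.45, exact permutation p = 0.0667) did not. With mice left out, no p-value was adjusted over the 10 pairs, so whether the calls hold at the adjusted threshold was not tested.

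**Figure D2:**
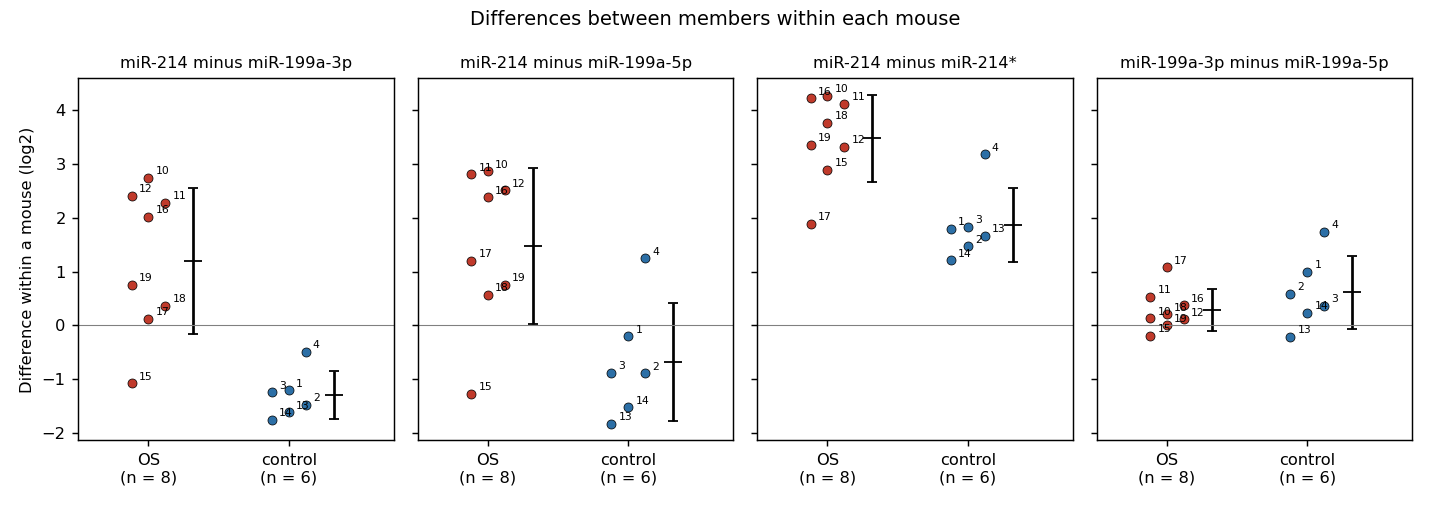
Difference in log2 level between members within each mouse (vertical axis) for mice with OS and controls; points are mice labelled by number and bars are the mean and SD. For miR-214 minus miR-199a-3p 7 of the 8 mice with OS exceed all controls, and for miR-199a-3p minus miR-199a-5p all 8 lie within the controls.

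On the levels as scaled here, the members did not all run together from mouse to mouse. The pairs that passed among mice with OS were not those that passed among controls. Among mice with OS, miR-199a-3p and miR-199a-5p were the closest pair, with r = 0.95 and rho = 0.93 (exact permutation p = 0.000422 for r, adjusted over 20 relations 0.00843, and 0.0446 for rho). Without the 2 farthest mice r was 0.90. miR-214* followed both, with r = 0.90 against miR-199a-3p and 0.89 against miR-199a-5p (rho = 0.88 for each, adjusted exact permutation p = 0.0103 for each r and 0.0483 for each rho), and r stayed at 0.84 for each without the 2 farthest mice.

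miR-214 itself followed its own star arm among mice with OS, with r = 0.90 and rho = 0.83 (exact permutation p = 0.00365 for r, adjusted p = 0.0182), while the adjusted p of rho was 0.0667. That relation rested on mice 15 and 18, which were low for both, and r was 0.55 without them. Against miR-199a-3p r was 0.67 and rho 0.71, and against miR-199a-5p r was 0.66 and rho 0.74 (adjusted exact permutation p = 0.167 for each r), and without mice 15 and 18 r fell to 0.17 and 0.07. Against miR-199b* r was 0.04 and rho 0.24 (adjusted exact permutation p = 0.913).

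Among the 6 controls only miR-199a-5p and miR-199b* passed by r, with r = 0.97 and rho = 0.94 (exact permutation p = 0.00694 for r, adjusted p = 0.0278, and 0.0667 for rho), and r was 0.92 without the 2 farthest mice. The assays of this pair may target nearly the same letters, as said above. Neither miR-214 against miR-199a-3p (r = 0.87, rho = 0.89) nor miR-214* against miR-199a-3p (r = 0.88, rho = 0.83) passed after adjustment (adjusted exact permutation p = 0.0595 for each r). The arms of miR-199a, the closest pair in mice with OS, had r = 0.18 and rho = 0.09 here (adjusted exact permutation p = 0.819). This r moved with the scaling, to 0.70 on the reference miRNAs and 0.78 unscaled, and others moved too. For miR-214* against miR-199a-5p r was 0.47 as scaled here, 0.81 on the reference miRNAs and 0.88 unscaled. In the same order r was 0.25, 0.64 and 0.87 for miR-214* against miR-199b*, and 0.59, 0.79 and 0.03 for miR-214 against miR-214*. For miR-214 against miR-199a-3p it was 0.87, 0.92 and 0.53. The r of miR-199a-5p with miR-199b* was 0.97 on the reference miRNAs and 0.996 unscaled. Whether the correlations differ between the groups was not tested.

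**Figure D3:**
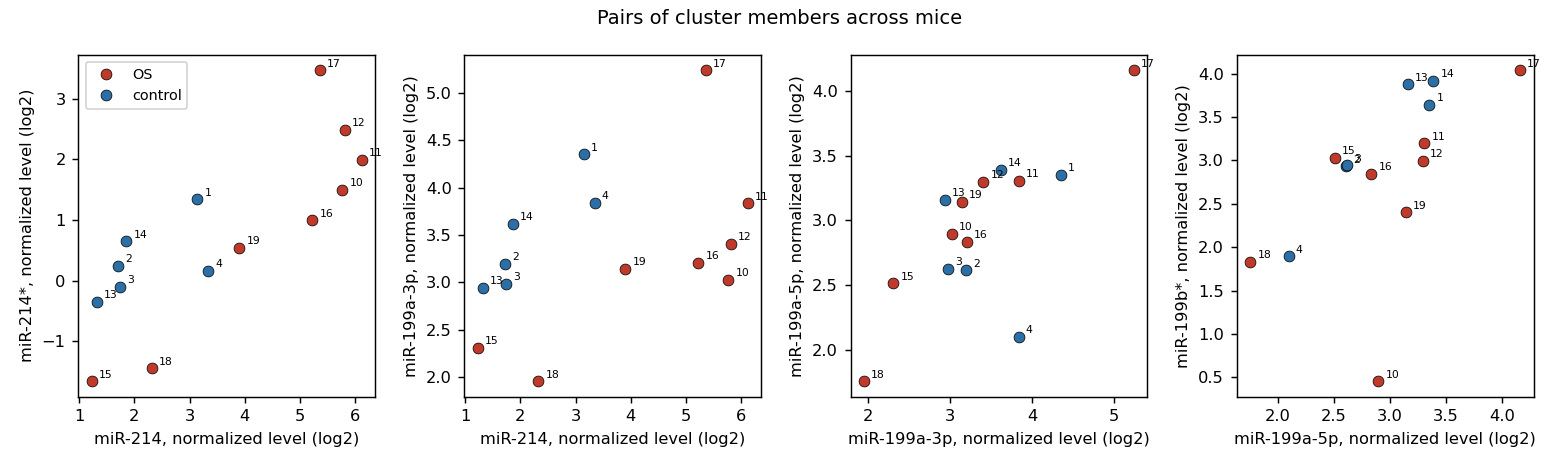
Normalized log2 levels of pairs of members against each other; each point is a mouse, labelled by number, in red for OS and blue for control. Mice 15 and 18 with OS sit at the low end of miR-214, miR-214* and miR-199a-3p, and mouse 10 with OS has a low miR-199b* beside an ordinary miR-199a-5p.

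The spread of the miR-214 wells was also compared. The mean absolute deviation from the group's median, on the mean of both assays, was 1.30 in mice with OS and 0.60 in controls, a difference of 0.70 that did not pass the exact permutation test (p = 0.326). For mmu-miR-214* it was 1.38 in mice with OS and 0.42 in controls (exact permutation p = 0.0669, adjusted over 7 such tests 0.469). Of the 276 miRNAs measured in every mouse, 8 had a larger difference in spread than the mmu-miR-214 well. The mean of both assays was not ranked. With 1 mouse left out its difference in spread was 0.30 (without mouse 15 with OS) to 0.91. It was 0.36 when scaled to the reference miRNAs and 1.17 on unscaled Cq. None of these passed (exact permutation p from 0.139 to 0.614).

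The haemolysis marker and miR-451 had negative correlations with miR-214 from mouse to mouse, which missed the threshold after adjustment. The haemolysis marker averaged 4.19 ± 1.94 in mice with OS and 5.77 ± 1.43 in controls (difference -1.58, exact permutation p = 0.117), and miR-451 averaged 11.2 ± 1.48 in mice with OS and 12.6 ± 1.02 in controls (difference -1.43, exact permutation p = 0.0623). Against the marker miR-214 had r = -0.83 and rho = -0.86 in mice with OS and r = -0.84 and rho = -0.83 in controls (exact permutation p = 0.0101 and 0.0208 for r, adjusted over 36 relations 0.0604 and 0.0833). Without the 2 farthest mice r was -0.85 in mice with OS and -0.29 in controls. For miR-451 alone, r with miR-214 was -0.64 in mice with OS and -0.77 in controls, rho was -0.79 and -0.71 (adjusted exact permutation p = 0.221 and 0.213 for r), and without the 2 farthest mice r was -0.71 and -0.70. The other term of the marker, miR-23a, had r = 0.91 and rho = 0.90 with miR-214 in mice with OS and r = 0.94 and rho = 0.77 in controls (adjusted exact permutation p = 0.0290 and 0.0604 for r), and r was 0.74 and 0.84 without the 2 farthest mice. The marker's relation with miR-214 thus holds that of miR-23a as well as that of miR-451. With the marker in the model as a covariate the difference of mmu-miR-214 was 1.11 (limma adjusted p = 0.279) and that of rno-miR-214 1.26 (limma adjusted p = 0.220), and with miR-451 as a covariate, an alternative chosen after the data were seen, they were 1.13 and 1.30 (limma adjusted p = 0.477 and adjusted p = 0.409).

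The same covariates left the estimated shift of miR-214 minus miR-199a-3p at 1.77 with the marker and 1.67 with miR-451, and that of miR-214 minus miR-214* at 1.37 and 1.27. The shift against miR-199a-5p, 2.16 with no covariate, was 1.22 with the marker and 1.17 with miR-451, and that against miR-199b*, 2.88 with no covariate, was 1.45 and 1.23. These estimates carry no test. Among mice with OS, miR-451 against miR-214 minus miR-199a-3p had r = -0.76 and rho = -0.90 (exact permutation p adjusted over the 36 relations, 0.0845 for r and 0.0329 for rho), and r was -0.64 without the 2 farthest mice. The 5 red cell miRNAs listed (miR-451, miR-144, miR-486, miR-16 and miR-15b) were measured in every mouse, with 1 of them lower in mice with OS, miR-144 (difference -2.38, limma adjusted p = 0.0131), and their mean level spanned 6.60 to 8.93 in mice with OS and 8.07 to 9.97 in controls. None of the 5 platelet and vessel miRNAs was called, and their mean level spanned 5.48 to 6.07 in mice with OS and 5.57 to 6.14 in controls. Of the 7 white cell miRNAs 1 was lower, miR-142-3p (difference -3.57, limma adjusted p = 0.00326), with mean levels over the list of 1.73 to 2.76 in mice with OS and 2.22 to 3.65 in controls. The ranges of these 3 blood cell lists overlapped between the groups. Below all controls lay 4 of the 8 mice with OS for the red cell list, 4 for the white cell list and 2 for the platelet and vessel list. The list means differed by -1.11, -0.63 and -0.06 in that order. Over all miRNAs tested 6.44% were lower. The 7 epithelial miRNAs shifted most, with 3 lower (miR-141, miR-203 and miR-205). Their mean level was taken over the 6 measured in every mouse, which leave out miR-203. It spanned -1.21 to 2.33 in mice with OS and 1.82 to 2.25 in controls, and 7 of the 8 mice with OS lay below all controls. Of 4 muscle and 3 liver miRNAs none was called. The part of blood cell content in the miR-214 difference was not tested beyond these covariates.

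Outside the members, the miRNAs whose levels varied most like miR-214 were found by Pearson's r over deviations from each group's mean in the 14 mice, as a description over 270 miRNAs measured in every mouse. The median r over those miRNAs was -0.07, and the 5th and 95th percentiles were -0.65 and 0.78. All share the same plates and scaling, and mice 15 and 18 with OS lay farthest from their group's mean of miR-214. miR-674* came first with r = 0.92, then miR-23b and miR-23a at 0.91, and miR-24 and miR-193b at 0.85. miR-23a and miR-24 belong to 1 cluster expressed in vessels and many other tissues, and miR-23a is also a term of the haemolysis marker.

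Of these 5, miR-674* alone passed the test between the groups. Its lowest, median and highest levels were 0.34, 2.44 and 3.84 in mice with OS, against -0.10, 0.56 and 1.41 in controls, a difference of 1.64 (SE 0.52, limma adjusted p = 0.0442), and 5 of the 8 mice with OS exceeded all controls. The levels of miR-23b, miR-23a and miR-24 differed by 0.16, 0.14 and 0.03, and that of miR-193b by 0.90 (SE 0.69, limma adjusted p = 0.401). At the other end were miR-33, which lies in the Srebf2 gene and acts on cholesterol export, and miR-592, both at r = -0.80, and miR-32 at -0.75. These ranks moved with the scaling, except that miR-674* came first under each of the 4 scalings compared. On the reference miRNAs miR-24 had r = 0.75 and rank 15, miR-33 r = -0.50 and rank 247 of 270, and miR-32 r = -0.45 and rank 237, and unscaled the r of miR-33, miR-592 and miR-32 was -0.37, -0.43 and -0.38.

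Ranked on the same scale, miR-214* reached r = 0.86 and 3 miRNAs, miR-674*, miR-23b and miR-23a, were as alike or more. miR-199a-3p reached 0.70 with 20 as alike or more, miR-199a-5p 0.47 with 48, and miR-199b* -0.07 with 133, where miR-199b* had 0.09 on the reference miRNAs and 0.19 unscaled. The other candidates of the study met miR-214 at r = 0.84 for miR-574-3p (difference 1.76, limma adjusted p = 0.100), 0.60 for miR-335-5p and -0.25 for miR-205 (difference -3.98). In mice with OS and in controls r was 0.84 and 0.91 for miR-574-3p, 0.71 and 0.13 for miR-335-5p, and -0.71 and 0.50 for miR-205.

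**Figure D4:**
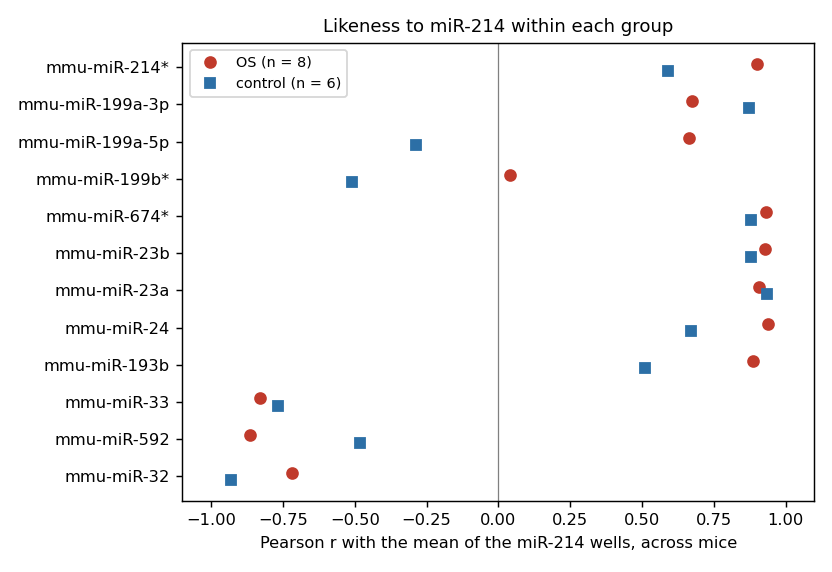
Pearson's r with the mean of the miR-214 assays (horizontal axis) for the other members and for the miRNAs most and least like it; circles are mice with OS and squares are controls. miR-674* and miR-23a lie near 0.9 in both groups, and the value of -0.29 for miR-199a-5p in controls was 0.37 when scaled to the reference miRNAs.

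A list of 53 miRNA names known for roles in bone, cartilage or stroma gives the setting for the members, and 48 of these names had wells, standing for 77 miRNAs tested. On it 3 were higher in mice with OS, both miR-214 assays and miR-212-3p, 1 was lower, miR-29a*, and 73 did not pass (limma with Benjamini-Hochberg adjustment over all 388). The median difference over the list was -0.22, against -0.0027 over all miRNAs tested. Without the members, 1 of 71 was higher and 1 lower, where 6.19% and 6.44% of all those tested were. The count of 4 became 0 without mice 10, 11 or 12 with OS or control 3, and 10 without mouse 15 with OS.

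miR-212-3p, induced by the transcription factor CREB in other tissues, had a lowest, median and highest level of -2.17, -0.43 and 0.97 in mice with OS, against -2.90, -2.29 and -1.49 in controls (difference 1.60, SE 0.49, limma adjusted p = 0.0407). miR-29a*, the opposite arm to miR-29a, whose family represses collagen mRNAs, stood at -1.03, -0.64 and 0.51 in mice with OS and at 0.24, 0.97 and 1.09 in controls (difference -1.17, SE 0.34, limma adjusted p = 0.0327). With miR-212-3p 5 of the 8 mice with OS exceeded all controls, and with miR-29a* 6 fell below all of them. Next by p, and not passing, were miR-34c, a p53-induced miRNA (difference -1.68, limma adjusted p = 0.0504), miR-125a-3p (1.31, adjusted p = 0.0600, over 7 mice with OS and 4 controls), miR-140 of cartilage (-1.04, adjusted p = 0.0748) and miR-335-5p (1.46, adjusted p = 0.0978).

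The list members did not follow miR-214 from mouse to mouse as a body. Over the 50 of them measured in every mouse, members left out, the median r with miR-214 was 0.01, with miR-29b lowest at -0.70 and miR-24 highest at 0.85.

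**Figure D5:**
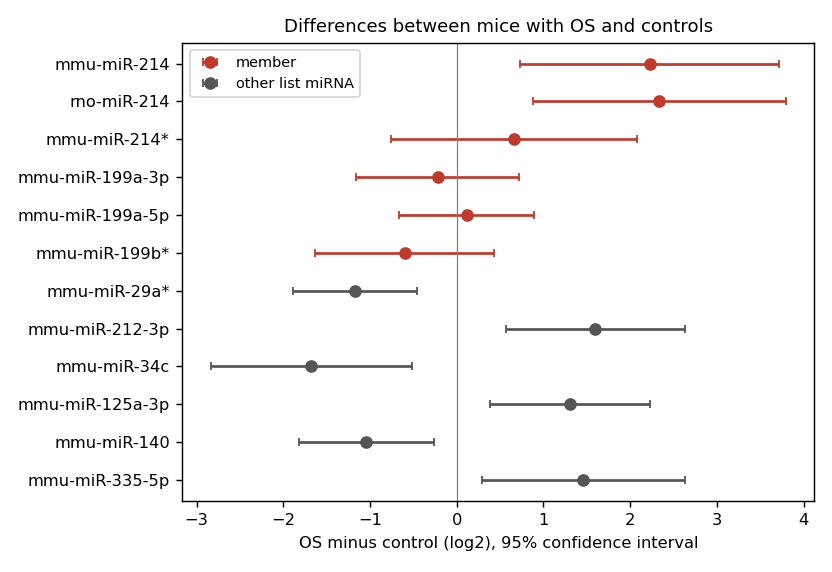
Difference in log2 level, OS minus control (horizontal axis), with its 95% confidence interval from limma, for the 6 members in red and for the named miRNAs of the bone and stroma list in grey. The intervals of both miR-214 assays lie above 0, and those of the other 4 members cross it.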

How the data were processed

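Plasma miRNAs of 14 mice were measured on 2 plates per mouse (Exiqon mouse panels I and II). The deposited values are Cq, which are on a log2 scale. The sources used here do not say whether plates were calibrated before deposit. Wells were named through the well and name columns of a second deposited table, whose fold changes and p-values are the authors' own comparison and were not used. The members and lists were chosen with earlier results of these data known.

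A Cq over 37 was set to missing and a miRNA was dropped when missing in at least 75% of all mice. The study's methods apply that limit within groups too, which was not done here. Repeat wells of 3 miRNAs were averaged. For the mean Cq of a mouse alone, a missing value was filled with its group's mean, or with 38 where its group had none. The normalized level is that mean minus the Cq. Groups were compared with limma 3.58.1 (lmFit, eBayes) in R 4.3.3, adjusted over 388 miRNAs, and with exact two-sided permutation tests over 3003 splits of the mice (smallest possible p = 0.000333), in Python 3.11.15 with scipy 1.17.1. Mice are separate animals, and their number, not a read depth, limits the precision.

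Named were every member, list miRNAs past the threshold and the next 4 by p, miRNAs sharing a seed, the 5 most and 3 least like miR-214, miR-451, miR-23a and the study's other candidates. The marker lists of muscle (4 measured, 0 called), liver (3 measured, 0 called) and epithelium (7 measured, 3 lower) were also examined. The alternatives were other scalings (3 reference miRNAs, the median, each panel's own mean, none), Cq limits of 35 and 40, the methods' t-test, the haemolysis marker as a covariate or as a limit of 7, and leaving out each mouse. The limma step was tested on simulated data.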

Additional observations from a re-analysis of the deposited data

Results flagged for a closer look

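Of 34 groups of values examined, 2 held a mouse that stood far from the rest of its group, where chance gives about 1 in 20. For miR-214 minus miR-214*, control 4 stood at 3.19, with the next control at 1.83 and the lowest at 1.21. This mouse was also the highest control for both miR-214 assays. For miR-199a-5p minus miR-199b*, mouse 10 with OS stood at 2.44, with the next mouse at 0.74 and the lowest at -0.52. In that mouse miR-199b* had a level of 0.46, the lowest of all 14, and miR-199a-5p a level of 2.89. Mouse 10 also had the lowest haemolysis marker, 1.05. No cause was tested for either.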

How the results depend on the processing

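The count of 49 miRNAs called became 21 on unscaled Cq, 29 with a Cq limit of 35, 29 by the methods' t-test after adjustment, 17 with the haemolysis marker as covariate, 20 without the 2 controls over the haemolysis limit, 1 with miR-451 as a covariate, and 20 (control 3) to 73 (OS mouse 15) with 1 mouse left out. mmu-miR-214 missed the threshold when scaled to the reference miRNAs (2.17, limma adjusted p = 0.0530), with a Cq limit of 35 (2.17, adjusted p = 0.0529), by the methods' t-test (2.22, adjusted p = 0.0915), on unscaled Cq (1.79, adjusted p = 0.125), without the 2 controls (1.92, adjusted p = 0.188), with the marker (1.11) and with miR-451 (1.13). rno-miR-214 missed it on unscaled Cq (1.90, adjusted p = 0.0972), by the methods' t-test (2.34, adjusted p = 0.0825), without the 2 controls (1.96, adjusted p = 0.185), with the marker (1.26) and with miR-451 (1.30). The mean of the assays missed it on unscaled Cq (1.85, exact permutation p = 0.0616) and without the 2 controls (1.94, exact permutation p = 0.0788). With 1 mouse left out the differences were 1.98 to 2.67 for mmu-miR-214, 2.11 to 2.81 for rno-miR-214 and 2.04 to 2.74 for their mean. mmu-miR-214 lost its call without OS mice 10, 11, 12, 16, 17 or 19 or controls 2, 3, 13 or 14, and rno-miR-214 without OS mice 10, 11, 12 or 16 or the same controls.

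The signs that turned belonged to members and pairs that did not pass as reported. These were miR-214* with the marker (-0.18) and with miR-451 (-0.054), miR-199a-3p after centring every panel by itself (0.023), and miR-199a-5p on unscaled Cq (-0.32), with the marker (-0.032) and with 1 mouse left out (-0.045 to 0.29). miR-214* minus miR-199a-5p turned with the marker (-0.15) and miR-451 (-0.10), miR-214* minus miR-199b* with miR-451 (-0.032), and miR-199a-3p minus miR-199b* with the marker (-0.32) and miR-451 (-0.43). Without the 2 controls, miR-214 minus miR-199a-5p (1.83) and minus miR-199b* (2.45) missed an unadjusted p of 0.05. With 1 mouse left out, miR-214* minus miR-199a-3p spanned 0.69 to 1.12, miR-214* minus miR-199b* 0.88 to 1.70 and miR-199a-5p minus miR-199b* 0.42 to 0.85. Each had an unadjusted p under 0.05 in some of these tests. The 4 list calls became 0 with the marker and 0 to 10 with 1 mouse left out, reaching 10 without OS mouse 15. Settings for the pairs and miR-451 were chosen after the data were seen, and the causes were not tested. An exact permutation test takes no covariate, so the mean of the assays has no such value, and none by the methods' t-test. No paired analysis was possible because the labels do not say which mice were littermates of one another.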
